A study of Mus musculus with 2 samples.

Results

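The insulin-like growth factor (IGF) axis was followed through 10 genes, which were chosen by name and make up 10 of the 32285 genes listed in each library. They are the ligand gene Igf1, the receptor genes Igf1r, Igf2r and Insr, and the genes of 6 IGF-binding proteins, Igfbp2, Igfbp3, Igfbp4, Igfbp5, Igfbp6 and Igfbp7. Each was measured by single-cell RNA sequencing in cultured progenitors from the stromal vascular fraction of subcutaneous white adipose tissue (WAT) and of interscapular brown adipose tissue (BAT). The cells came from male and female C57/BL6J pups, which carry no engineered allele according to the labels and were given the age P0. Cells of each depot were grown to confluence before capture and received no differentiation treatment named in the labels. A single pooled library per depot was made, so depot, culture and library cannot be told apart, no test between samples was possible, and all intervals are 95% intervals that cover counting error only.

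IGF1 is a secreted peptide that activates the IGF1 receptor, a tyrosine kinase closely related to the insulin receptor, whereas the IGF2 receptor has no kinase and takes up IGF2 for breakdown. IGF-binding proteins hold IGFs outside the cell, where they prolong their life or keep them from the receptor, and are released from them by proteases. In adipose tissue, precursor cells respond to IGF1 mainly through the IGF1 receptor and turn to the insulin receptor as they become adipocytes.

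The white library held 5261 cells and the brown library 7009, with medians of 26239 and 26411 unique molecular identifiers (UMIs, counts of captured mRNA molecules) per cell, and 9 cell barcodes occurred in both libraries. After the cell filter of the study, and after glial-like, myeloid-like and myogenic-like cells had been set aside, 4331 white and 5958 brown precursor cells remained. Clusters are those of the study, whose labels were used for 1999 cells per depot: white and brown adipocyte precursor clusters (wAPC 1 to wAPC 4, bAPC 1 to bAPC 5), committed adipogenic precursors (wCAPs, bCAPs), fibroadipogenic progenitor-like cells (wFAPLs, bFAPLs) and 15 differentiating wFAPLs. The labels fitted most marker genes: Pparg, the master regulator of adipogenesis, stood at 92.5 CPM (UMIs per 1000000 UMIs) in wCAPs and 92.8 CPM in bCAPs against 9.51 CPM in wFAPLs and 17.0 CPM in bFAPLs, and Cryab, a FAPL marker, at 333 and 445 CPM in wFAPLs and bFAPLs against 85.5 and 95.3 CPM in the CAPs. The differentiating wFAPLs stood apart, with Pdgfra, a precursor marker, at 6.29 CPM against 82.7 CPM in wFAPLs and with mural (pericyte and smooth muscle) markers summing to 31036 CPM. The study described bAPC 5 by its high Igf1 and differentiating wFAPLs by Igfbp2 among other genes. It also reported Igf1 and Igf2 as higher in wCAPs than in wFAPLs. Igfbp6 was among the genes that, in its account, appeared raised across fibroadipogenic populations. All clusters were made from the same counts as the levels below, so values of a cluster against the rest are descriptions.

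The promoters of 4 binding protein genes are shown because these 4, Igfbp2, Igfbp4, Igfbp5 and Igfbp6, were more than 2-fold higher in wFAPLs than in wCAPs (below). Each sequence holds the 250 bases before a RefSeq start site in GRCm38.p6, 5′ to 3′ on the strand of the gene. Capitals mark the TATA box motif TATAAA, the CAAT box motif CCAAT and the GC box motif GGGCGG, on either strand. Of 32851 promoters of the same length, 12.4% held the TATA box motif, 33.8% the CAAT box motif and 32.7% the GC box motif.
Igfbp2 (chr1:72824230-72824479, plus strand): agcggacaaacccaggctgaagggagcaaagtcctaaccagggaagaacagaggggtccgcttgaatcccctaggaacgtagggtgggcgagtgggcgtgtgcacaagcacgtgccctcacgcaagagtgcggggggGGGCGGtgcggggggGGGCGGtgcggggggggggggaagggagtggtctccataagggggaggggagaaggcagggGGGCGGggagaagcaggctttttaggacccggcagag
Igfbp4 (chr11:99040994-99041243, plus strand): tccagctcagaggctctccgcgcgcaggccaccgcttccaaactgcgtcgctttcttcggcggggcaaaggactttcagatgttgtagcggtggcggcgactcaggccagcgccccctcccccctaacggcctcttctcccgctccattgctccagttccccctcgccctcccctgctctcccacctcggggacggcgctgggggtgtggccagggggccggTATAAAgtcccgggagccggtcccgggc
Igfbp5 (chr1:72874866-72875115, minus strand): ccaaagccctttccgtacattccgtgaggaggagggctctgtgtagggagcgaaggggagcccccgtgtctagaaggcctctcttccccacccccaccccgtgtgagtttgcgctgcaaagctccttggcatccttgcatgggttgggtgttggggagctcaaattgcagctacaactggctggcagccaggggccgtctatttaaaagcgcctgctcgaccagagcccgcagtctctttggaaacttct
Igfbp6 (chr15:102143936-102144185, plus strand): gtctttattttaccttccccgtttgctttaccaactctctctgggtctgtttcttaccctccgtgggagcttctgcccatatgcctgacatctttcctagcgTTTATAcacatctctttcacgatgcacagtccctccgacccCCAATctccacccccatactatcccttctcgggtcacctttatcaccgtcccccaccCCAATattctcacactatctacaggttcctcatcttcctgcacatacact
The 4 windows shown were unlike in these features, but they do not lie alike relative to the annotated genes. Igfbp2 held 3 GC box motifs and had a GC content of 67.2%, and Igfbp4 held 1 TATA box motif close to the start site, with 69.2% GC. The window of another Igfbp2 start site, inside the gene (chr1:72825137-72825386, not shown), held none of the 3 motifs, with 56.4% GC. Igfbp6 held 1 TATA box motif, on the opposite strand, and 2 CAAT box motifs, with 49.6% GC, below the median of 52.4% over all promoters. Its window ends at 102144185, short of the annotated gene start at 102144362, so the bases directly before that start are not covered. Igfbp5 held none of the 3 motifs in this window, which overlaps an annotated exon of the gene, with 58.8% GC.

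By annotation of GRCm38, Igfbp2 (ENSMUSG00000039323, chr1:72824503-72852474, plus strand) and Igfbp5 (ENSMUSG00000026185, chr1:72857932-72874884, minus strand) are neighbours whose 3′ ends face each other across 5457 bases. The other binding protein genes lie at chr11:7206086-7213923 (Igfbp3, minus strand), chr11:99041244-99054392 (Igfbp4, plus strand), chr15:102144362-102149511 (Igfbp6, plus strand) and chr5:77349240-77408041 (Igfbp7, minus strand). Igf1 lies at chr10:87858265-87937042 (plus strand), Igf1r at chr7:67952827-68233668 (plus strand), Igf2r at chr17:12682406-12769664 (minus strand) and Insr at chr8:3122061-3279617 (minus strand).

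Igf1 mRNA was the member with the widest gap between depots. White precursor cells held it at 164 CPM (162 to 167), 3.09-fold above the 53.2 CPM (52.1 to 54.3) of brown ones, with a log2 ratio of brown over white of −1.63 (−1.66 to −1.59). Among white clusters Igf1 was lowest in differentiating wFAPLs at 27.3 CPM and wFAPLs at 87.7 CPM, ran through wAPC 4 (100 CPM), wAPC 1 (124 CPM), wAPC 2 (172 CPM) and wAPC 3 (174 CPM), and was highest in wCAPs at 223 CPM. Among brown clusters 5 lay between 27.6 CPM (bFAPLs) and 53.2 CPM (bAPC 1), bCAPs reached 76.9 CPM, and bAPC 5 stood at 179 CPM (165 to 194). In the order over the 13 clusters with more than 50 labelled cells, the intervals of wFAPLs overlapped those of bCAPs and wAPC 4, and the interval of bAPC 5 overlapped that of wAPC 3 but not that of wCAPs. The white and brown ranges thus overlapped only through bAPC 5 and differentiating wFAPLs. The former lay between wAPC 3 and wCAPs, and the latter just below bFAPLs.

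**Figure D1:**
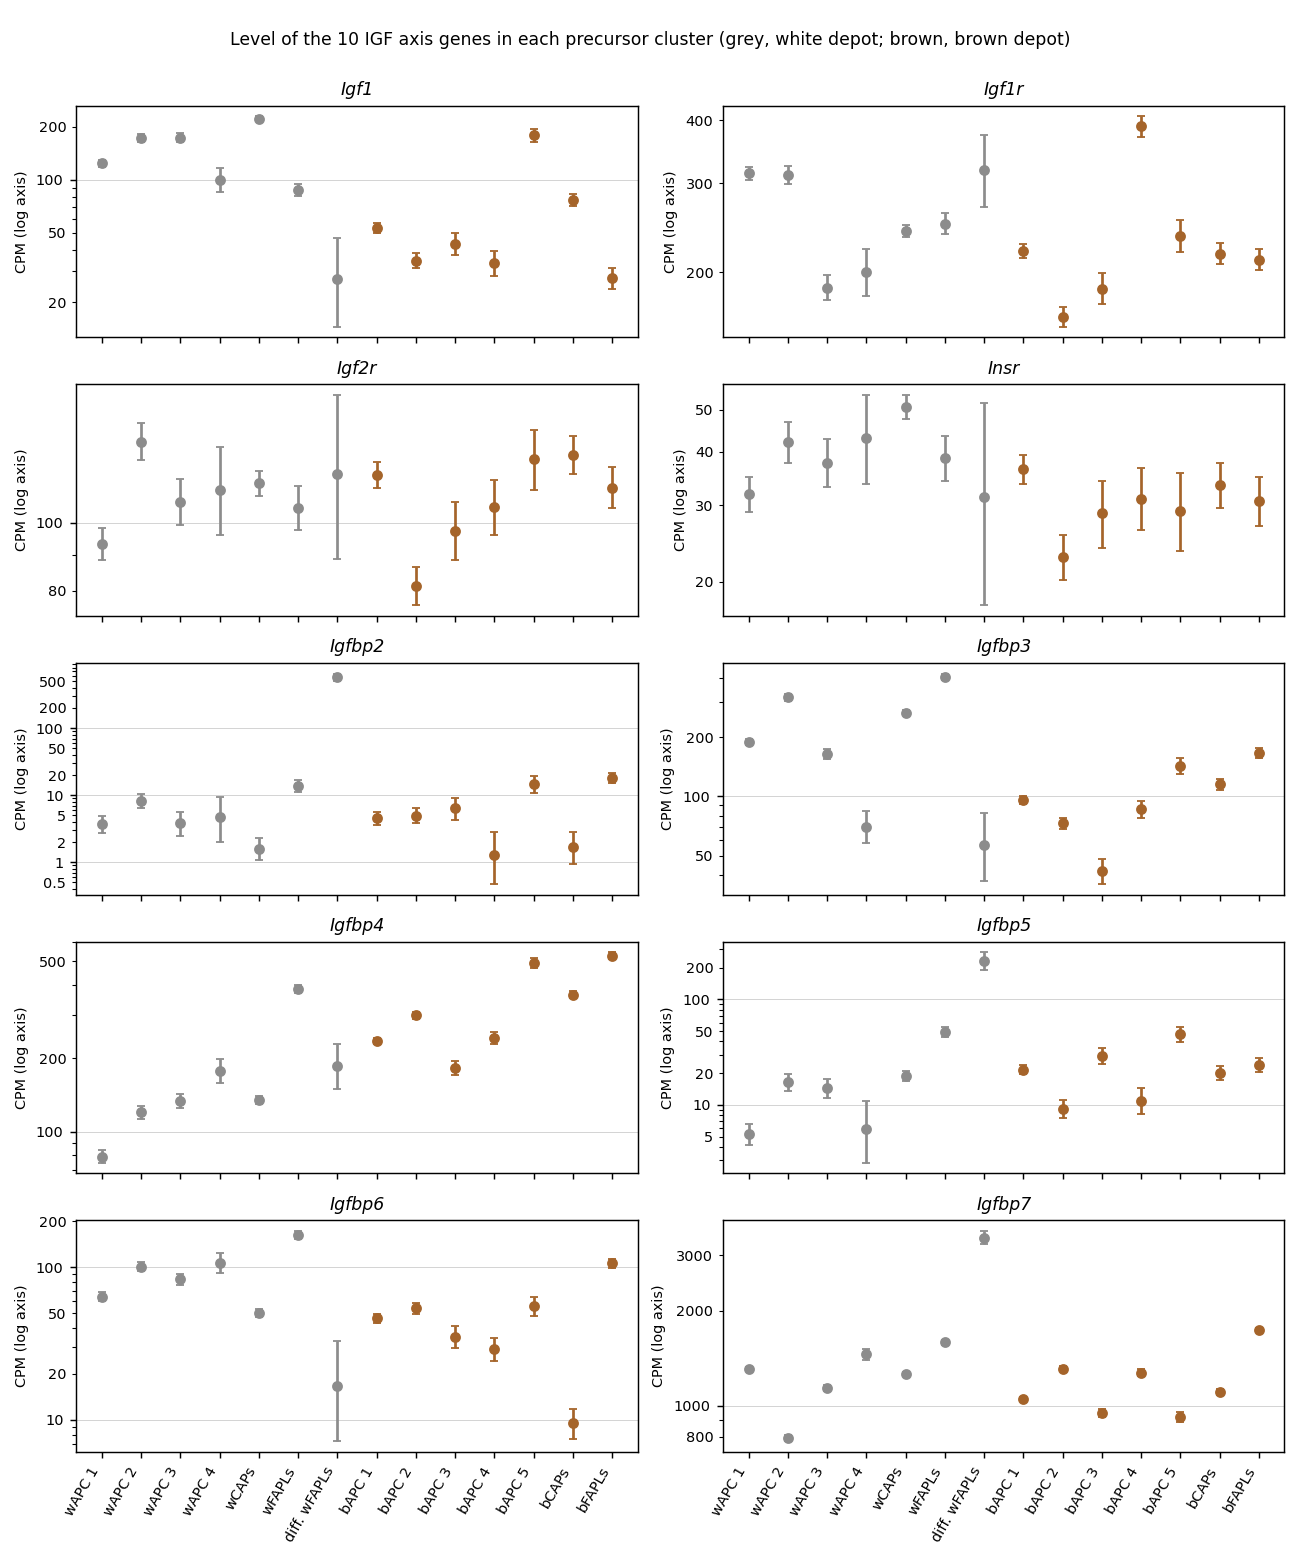
Level of each of the 10 IGF axis genes in 14 precursor clusters, in CPM (log axis), with the white clusters in grey and the brown clusters in brown. Points are the summed level of a cluster and bars its 95% Poisson interval, and the 15 differentiating wFAPLs have the widest intervals, with Igfbp2 at 579 CPM.

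The difference in Igf1 was also seen in the share of cells with a UMI. With every cell thinned to 10000 UMIs, Igf1 was found in 61.2% of white and 30.01% of brown precursor cells, and in 80.7% and 49.0% before thinning. The thinned share was 73.3% (69.8 to 76.6) in wCAPs, 71.3% (62.1 to 79.4) in bAPC 5 and 19.0% (14.6 to 24.1) in bFAPLs. Glial-like cells, at medians of 20672 (white) and 19494.5 (brown) UMIs before thinning, had thinned shares of 21.3% and 32.4%. An Igf1 share at or below that of glial-like cells in the same library is read as possible background, though free RNA was not measured. This holds for bFAPLs, at a median of 25194 UMIs, for bAPC 1 to bAPC 4 (24.0% to 27.5%) and for brown precursor cells as a whole, but not for bCAPs (43.9%) and bAPC 5. The brown glial-like share came from 68 cells, with an interval of 21.5% to 44.8% that held the share of bCAPs. The 33 myogenic-like cells of the same library had a lower share, 12.1%, and by that share no brown precursor cluster would count as background. Its interval, 3.40% to 28.2%, held the shares of bFAPLs and bAPC 1 to bAPC 4, so the reading depends on the cells taken as the measure. Whether glial-like cells express Igf1 themselves was not tested. If shares at or below the glial-like share are background, the brown levels of Igf1 outside bCAPs and bAPC 5 are upper limits. The depot ratios that rest on them are then lower limits in size. Myeloid-like cells, which were set aside, had the highest Igf1 of all groups, 704 CPM (649 to 763) in the white library and 489 CPM (460 to 519) in the brown one, with Igf1 in 96.6% and 93.6% of thinned cells. Myeloid markers summed to 38.4 CPM in wFAPLs against 6.54 to 11.8 CPM in the APC clusters and CAPs of the white depot, and wFAPLs had the second lowest Igf1 of the white clusters.

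In both depots Igf1 was higher in CAPs than in FAPLs, by 1.35 on the log2 scale in white (1.23 to 1.47) and 1.48 in brown (1.25 to 1.71). If the level of bFAPLs is an upper limit, the brown ratio is a lower limit in size. Brown over white, Igf1 stood at −1.54 (−1.66 to −1.42) in CAPs and at −1.67 (−1.90 to −1.44) in FAPLs, the latter under the same condition.

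The 3 receptor genes varied far less than the ligand. Igf1r was the receptor with the highest level, at 262 CPM in white and 221 CPM in brown precursor cells. UMIs of this assay are read from the 3′ end of an mRNA and were not divided by gene length, but capture can differ between genes, which limits any comparison of levels between them. Its log2 ratio of brown over white was −0.25 (−0.27 to −0.23), and it was found in 97.9% of white and 96.7% of brown cells before thinning. Over the 13 clusters Igf1r spanned 2.39-fold, from 163 CPM in bAPC 2 to 389 CPM (372 to 408) in bAPC 4. These 2 clusters, the lowest and the highest, lay clear of all others, with 314 CPM in wAPC 1 and 312 CPM in wAPC 2 next in order. CAPs and FAPLs did not separate: the log2 ratio of CAPs over FAPLs was −0.05 (−0.13 to 0.03) in white and 0.04 (−0.06 to 0.14) in brown.

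Igf2r, which removes IGF2 from the cell surface, was the least variable member. It stood at 106 CPM in white and 105 CPM in brown precursor cells, with a log2 ratio of −0.01 (−0.04 to 0.02), and spanned 1.61-fold over the 13 clusters, from 81.2 CPM in bAPC 2 to 131 CPM in wAPC 2. All neighbours in its order had overlapping intervals except the lowest, bAPC 2, and the next, wAPC 1. The antisense transcript Airn, which silences the paternal Igf2r copy in many tissues, overlaps Igf2r and was counted at 250 CPM in white and 209 CPM in brown precursor cells, or between 1.62 (bAPC 4) and 3.30 (wAPC 4) UMIs per Igf2r UMI over the clusters.

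Insr, the insulin receptor, had the lowest level of the receptors, at 41.8 CPM in white and 31.2 CPM in brown precursor cells (log2 ratio −0.42, −0.48 to −0.37). It was highest in wCAPs at 50.7 CPM (47.6 to 54.0) and lowest in bAPC 2 at 22.8 CPM, with each cluster overlapping its neighbours in the order. In white cells Insr was 0.39 higher in CAPs than in FAPLs on the log2 scale (0.20 to 0.59), and in brown cells 0.12 (−0.14 to 0.38). There were 6.28 Igf1r UMIs per Insr UMI (6.10 to 6.47) in white and 7.08 (6.88 to 7.29) in brown precursor cells, with a low of 4.66 in wAPC 4 and 4.76 in wCAPs and a high of 12.5 in bAPC 4. Igf1r thus outnumbered Insr in every precursor cluster. Reads from introns are counted by default in this version of Cell Ranger, and long genes such as Igf1r and Insr can gain UMIs in this way, which was not tested.

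Transcripts for the ligand and its receptor were found in the same cells about as often as their separate shares give. At 10000 UMIs per cell, both Igf1 and Igf1r were found in 52.2% of white and 24.5% of brown precursor cells, where the product of the separate shares was 52.7% and 24.6%, and by cluster in 63.4% of wCAPs, 60.9% of bAPC 5, 37.2% of bCAPs, 34.4% of wFAPLs and 14.7% of bFAPLs. As Igf1r was found in 73.7% of cells or more in each of these 14 clusters, the order of these shares was largely that of Igf1.

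The 6 binding protein genes differed in which depot and which cluster they marked, although their sum did not differ much between depots. Added together they reached 1781 CPM in white and 1716 CPM in brown precursor cells, of which Igfbp7 took 70.4% and 70.9%. Igfbp3 made up 14.8% of binding protein UMIs in white and 5.97% in brown cells, and Igfbp4 8.67% in white and 18.7% in brown cells. In both depots the sum was higher in FAPLs (2606 CPM in wFAPLs, 2582 CPM in bFAPLs) than in CAPs (1733 CPM and 1620 CPM), and it was highest in differentiating wFAPLs at 4485 CPM.

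**Figure D2:**
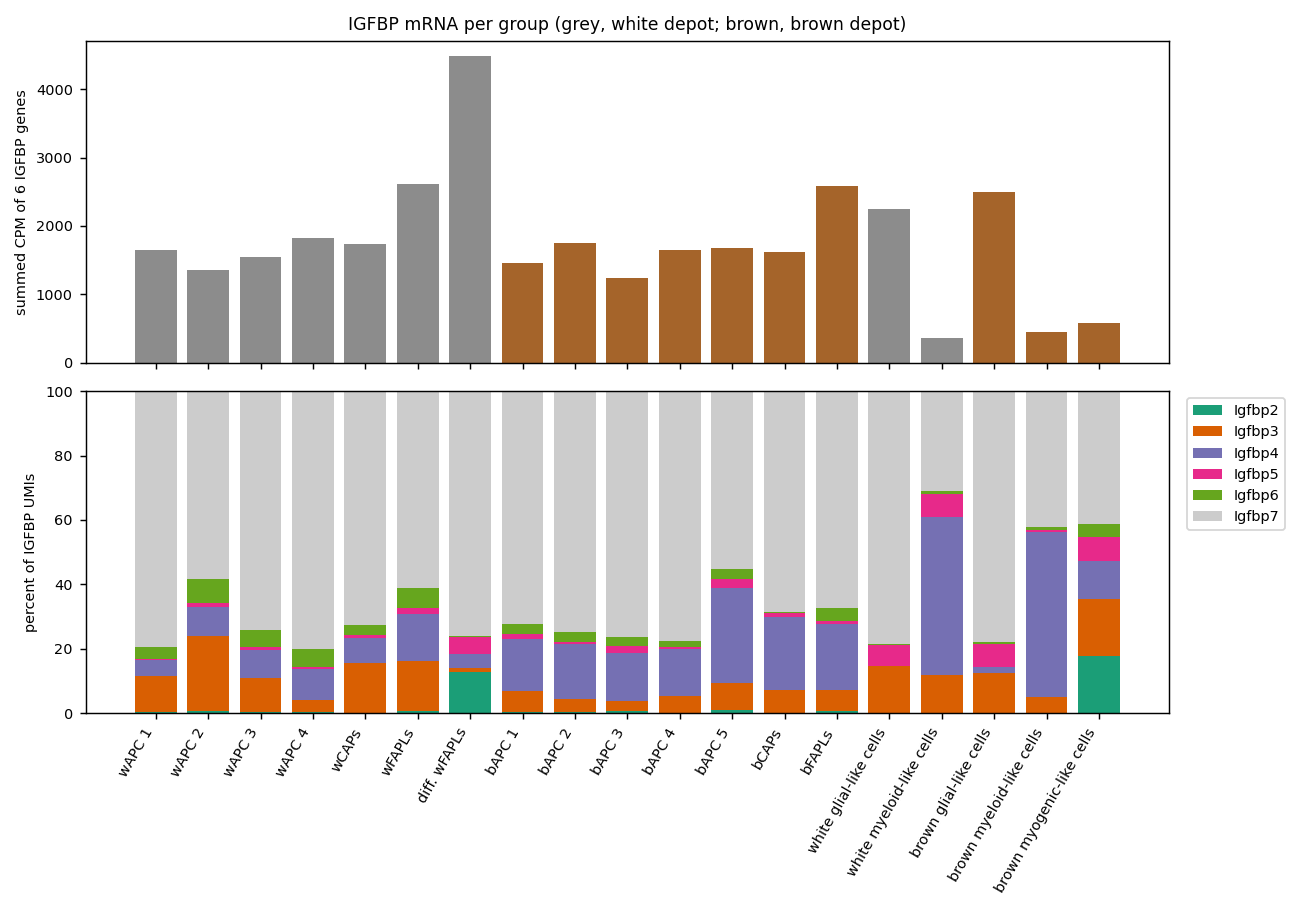
Summed level of the 6 IGF-binding protein genes (top, CPM) and the percent of these UMIs that each gene takes (bottom) in 14 precursor clusters and 5 groups of other cells. Igfbp7 takes most UMIs in every precursor cluster, Igfbp4 takes 49.0% and 51.2% in the myeloid-like cells, and Igfbp2 takes 12.9% in differentiating wFAPLs and 17.8% in myogenic-like cells.

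Between all brown and all white precursor cells, 3 of the 10 members passed 2-fold (a log2 ratio of 1 or more in size, with at least 10 CPM in either group), where 1.84% of the 9037 genes compared did. Igf1 and Igfbp3 were lower in brown and Igfbp4 higher, where 1.11% of these genes were lower and 0.73% higher. Igfbp3, the main carrier of IGFs in blood, stood at 263 CPM in white and 102 CPM in brown cells, with a log2 ratio of −1.36 (−1.39 to −1.33). Igfbp4, which blocks IGF action until it is cut by pappalysin, ran the other way, at 154 CPM in white and 321 CPM in brown cells (1.06, 1.03 to 1.08). The median log2 ratio was −0.25 over the members and −0.04 over all genes. Igfbp6, which prefers IGF2, fell short of 2-fold at 80.5 CPM in white and 47.4 CPM in brown cells (−0.76, −0.81 to −0.72). Igfbp2, Igfbp5 and Igfbp7 differed little between depots, with log2 ratios of −0.06 (−0.17 to 0.06), 0.02 (−0.06 to 0.09) and −0.04 (−0.05 to −0.04), and Igfbp2 was below 10 CPM in both.

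**Figure D3:**
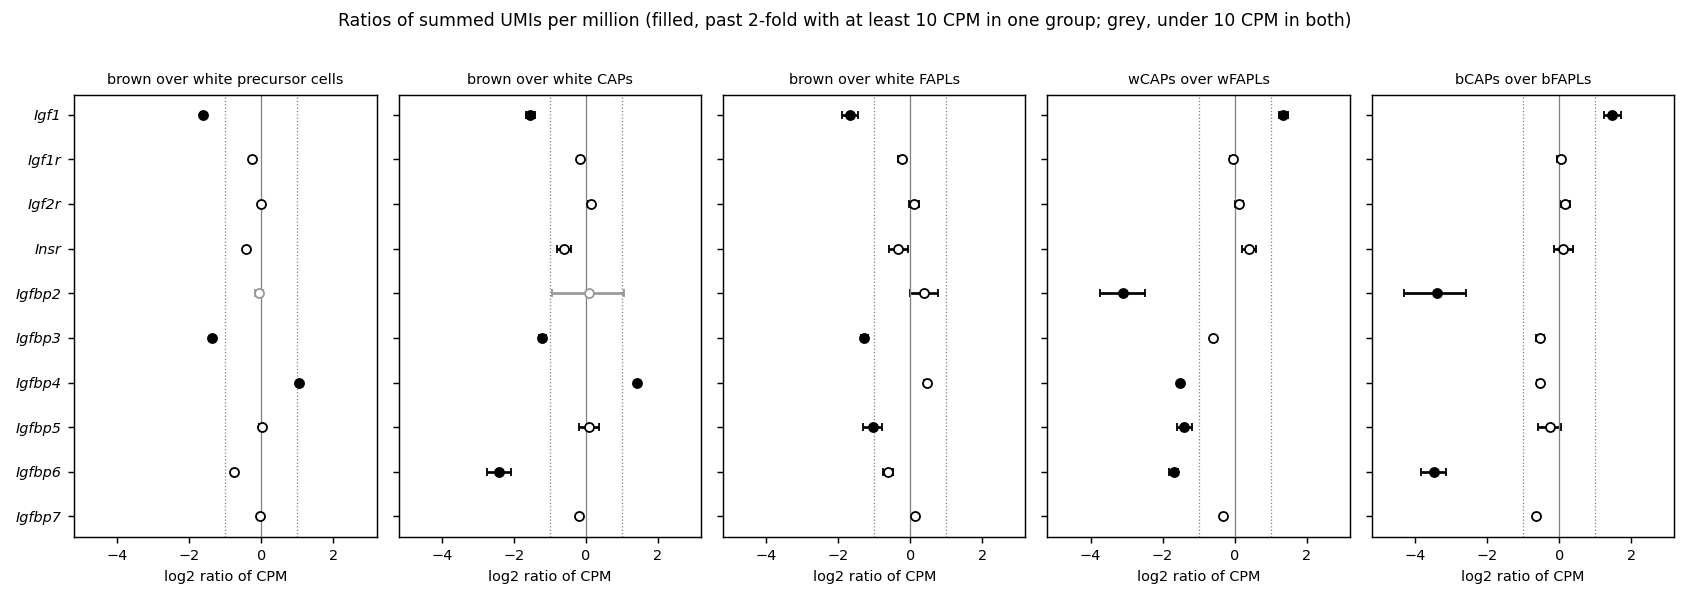
Log2 ratios of CPM for the 10 members in 5 comparisons, with 95% counting intervals; filled points pass 2-fold (dotted lines) with at least 10 CPM in either group, and grey marks genes below 10 CPM in both groups. Igf1 is at or beyond −1.54 in all 3 comparisons of brown over white and at 1.35 and 1.48 in CAPs over FAPLs, whereas the receptors stay within 0.60 of 0 throughout.

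Within the white depot, 5 of the 10 members passed 2-fold between CAPs and FAPLs, where 3.85% of 9199 genes did. Igf1 was higher in wCAPs, where 1.6% were, and 4 binding protein genes were lower, where 2.25% were. Igfbp2 was nearly missing from wCAPs (1.60 CPM, 1.09 to 2.27) and stood at 13.7 CPM (11.1 to 16.7) in wFAPLs, with wCAPs over wFAPLs at −3.10 (−3.73 to −2.50) on the log2 scale, −2.38 with carried labels and −4.05 after thinning. Igfbp6 was 3.24-fold lower in wCAPs (50.2 against 163 CPM), Igfbp4 2.84-fold lower (135 against 384 CPM) and Igfbp5 2.63-fold lower (18.8 against 49.4 CPM). These 4 genes thus ran opposite to Igf1 in the white depot. Igfbp3 (−0.61, −0.67 to −0.54) and Igfbp7 (−0.34, −0.37 to −0.30) lay on the same side but below 2-fold. The Igfbp5 value leaned on few cells, since 1 of the 256 wFAPLs held 100 of their 354 Igfbp5 UMIs, and without the richest cell of each group the log2 ratio was −1.03.

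Within the brown depot, 3 of the 10 members passed 2-fold between CAPs and FAPLs, where 3.87% of 9148 genes did. Igf1 was higher in bCAPs, where 2.01% were, and Igfbp2 and Igfbp6 were lower, where 1.86% were. Igfbp6 fell from 106 CPM (98.6 to 113) in bFAPLs to 9.51 CPM (7.52 to 11.9) in bCAPs, a log2 ratio of −3.48 (−3.83 to −3.14), and Igfbp2 from 17.9 CPM to 1.71 CPM (−3.39, −4.30 to −2.60). The Igfbp6 level of bCAPs was close to the 10.6 CPM of brown glial-like cells, and its thinned share of 6.08% of cells lay near the 5.88% found in these. If this level is background, which was not tested, the ratios that use it are lower limits in size. Igfbp4 was high in both groups, at 365 CPM in bCAPs and 528 CPM in bFAPLs (−0.53, −0.60 to −0.46). Igfbp5 stood at 20.0 and 24.0 CPM (−0.26, −0.58 to 0.05), but this value joined unlike ratios by sex. The log2 ratio was 0.36 (−0.01 to 0.73) in female and −2.21 (−3.10 to −1.41) in male cells. The male value came from only 16 UMIs in 50 bCAPs and 69 UMIs in 47 bFAPLs. The part of single cells rich in Igfbp5 in it was not tested. The Igfbp2 ratio was −2.06 in G1 cells, −2.38 with carried labels and −4.46 in male cells, and bFAPLs in S phase held Igfbp2 at 58.8 CPM against 9.39 CPM in G1.

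With both sexes together, the ratio of CAPs over FAPLs had the same sign in both depots for Igf1 and for all 6 binding protein genes, Igfbp5 in brown within counting error, but its size differed for several. By sex, the brown ratio of Igfbp4 was −0.68 in female and 0.06 (−0.10 to 0.22) in male cells, and that of Igfbp5 changed sign as given above, whereas the white ratio of Igfbp5 was −1.45 in female and −1.08 in male cells. The brown log2 ratio minus the white one was −1.78 (−2.14 to −1.42) for Igfbp6, whose level in bCAPs may be an upper limit, 1.13 (0.76 to 1.50) for Igfbp5, 0.97 (0.87 to 1.08) for Igfbp4 and −0.31 (−0.36 to −0.26) for Igfbp7. For Igfbp3 it was 0.07 (−0.07 to 0.21) and for Igfbp2 −0.30 (−1.28 to 0.69), both within counting error.

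Compared directly across depots, CAPs showed 4 of the 10 members past 2-fold, where 4.32% of 9235 genes were. In brown CAPs Igf1, Igfbp3 and Igfbp6 were lower, where 2.18% were, and Igfbp4 was higher, where 2.14% were. Igfbp6 was the widest of them at 50.2 CPM in wCAPs and 9.51 CPM in bCAPs (−2.40, −2.75 to −2.07), followed by Igfbp4 at 135 and 365 CPM (1.43, 1.36 to 1.51) and Igfbp3 at 266 and 115 CPM (−1.21, −1.31 to −1.11). FAPLs showed 3 of the 10 members past 2-fold, where 1.69% of 9136 genes were. All 3 (Igf1, Igfbp3 and Igfbp5) were lower in brown, where 1.04% were lower and 0.646% higher. Igfbp3 stood at 405 CPM in wFAPLs and 167 CPM in bFAPLs (−1.28, −1.38 to −1.18), with −1.41 in female cells and −0.71 (−0.93 to −0.50), below 2-fold, in male cells. Igfbp5 was at −1.04 (−1.31 to −0.78), but at −0.77 without the richest cell of each group, so that this call rests on 1 wFAPL cell. Igfbp4 and Igfbp6 were closer between the FAPLs of both depots (0.46 and −0.62) than between the CAPs.

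Seen cluster by cluster, FAPLs and bAPC 5 carried most of the high binding protein values. Against the other labelled cells of the library, wFAPLs were higher in Igfbp4 (1.69 on the log2 scale), Igfbp5 (1.66) and Igfbp6 (1.26), where 1.94% of genes were, and bFAPLs in Igfbp2 (1.93) and Igfbp6 (1.40), where 1.93% were, with Igf1 lower (−1.07), where 1.05% were. Brown APC 5 was higher in Igf1 (1.94, 1.81 to 2.07), Igfbp5 (1.33, 1.07 to 1.57) and Igfbp2 (1.29, 0.82 to 1.74), where 1.35% were, and with 493 CPM of Igfbp4 (469 to 518) it overlapped bFAPLs at 528 CPM (512 to 545). Other binding protein levels of bAPC 5 lay below those of bFAPLs, with Igfbp6 at 55.4 against 106 CPM and Igfbp7 at 923 against 1739 CPM, and their sum was 1676 against 2582 CPM. Dlk1, which marks preadipocytes, stood at 1021 CPM in bAPC 5, where Pparg was at 12.4 CPM.

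Several clusters were marked by a low binding protein level. White APC 1 was lower in Igfbp5 (−2.22), Igfbp2 (−1.66) and Igfbp4 (−1.15), where 1.27% of genes were, at 5.29, 3.69 and 79.1 CPM. White APC 4 was lower in Igfbp3 (−1.88) and Igfbp5 (−1.78), where 2.98% were, while its Igfbp6 level of 107 CPM was the second highest among white clusters. Brown CAPs were lower in Igfbp6 (−2.54), where 0.816% were, and white CAPs in Igfbp2 (−3.11), where 0.683% were. Single genes were also low in wAPC 3 (Igfbp2, −1.44, where 1.74% were), bAPC 2 (Igfbp5, −1.33, where 2.25% were) and bAPC 3 (Igfbp3, −1.34, where 1.61% were). Igfbp7, which binds IGFs weakly and is found in vessel walls and matrix, had the smallest span of the binding proteins over the 13 clusters, 2.20-fold, from 792 CPM in wAPC 2 to 1739 CPM in bFAPLs.

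The differentiating wFAPLs held the highest level of Igfbp2 (579 CPM, 512 to 651), Igfbp5 (233 CPM, 191 to 280) and Igfbp7 (3414 CPM, 3249.7 to 3583). Their Igf1 level, 27.3 CPM from 13 UMIs, overlapped that of bFAPLs. In this cluster 25.1% of 9502 genes passed 2-fold against the other labelled cells, so that the 6 members that did so (Igfbp2, Igfbp5 and Igfbp7 higher, Igf1, Igfbp3 and Igfbp6 lower) stand on a wide background, 9.06% of genes being higher and 16.1% lower. Igfbp2 UMIs ran from 0 to 96 over its 15 cells, with a median of 11 and 10 cells above 0, and Igfbp5 UMIs from 0 to 75, with a median of 0 and 6 cells above 0. Both genes were found in 2 cells and neither in 1 cell. Igfbp7 was found in all 15 cells, with 53 to 158 UMIs and a median of 109. A single cell held 75 of the 111 Igfbp5 UMIs, without which the level was 78.9 CPM, and 1 cell held 96 of the 276 Igfbp2 UMIs, without which it was 398 CPM. Igfbp7 and Igfbp2 were thus spread over most of the cluster, whereas the Igfbp5 level rested largely on 1 cell. Mural markers, all 9 of which were found, summed to 31036 CPM in this cluster and to between 2453 and 6296 CPM in the other 13. The 5 endothelial markers were at 0. Of 7 adipocyte markers, Adipoq, Plin1 and Cidec were at 0, as they were in wFAPLs and bFAPLs. Together the 7 summed to 1285 CPM, led by Fabp4, Lpl and Pparg, against 1068 CPM in bCAPs and 269 CPM in wFAPLs. The part of mural cells in the levels of this cluster was not tested.

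Igfbp2 and Igfbp5 differed from the other members in that their UMIs were packed into few cells. In thinned white precursor cells, Igfbp2 was found in 3.28% and Igfbp5 in 8.29% of cells, and in brown cells in 3.61% and 9.67%, while Igfbp7 was found in 99.8% and 99.9%. The variance of UMIs per cell was 9.59 (white) and 11.1 (brown) times the mean for Igfbp2 and 6.43 and 5.06 times for Igfbp5, but 1.14 and 1.13 times for Insr and 1.26 and 1.25 times for Igf2r. Cells with at least 3 Igfbp2 UMIs after thinning numbered 35 of 4330 in white (0.808%, 0.564 to 1.12) and 56 of 5958 in brown (0.9399%, 0.711 to 1.22).

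These Igfbp2-rich cells lay mainly in a few clusters, here with labels carried over to all precursor cells. Igfbp2 is among the genes by which the study described differentiating wFAPLs, so the share in that cluster is a description. Of 29 differentiating wFAPLs, 17 were Igfbp2-rich (58.6%, 38.9 to 76.5), against 8 of 510 wFAPLs (1.57%) and 1 of 1502 wCAPs, and this cluster held 46.8% of the Igfbp2 UMIs of white precursor cells. In brown cells 23 of 776 bFAPLs (2.96%, 1.89 to 4.41) and 13 of 281 bAPC 5 cells (4.63%, 2.49 to 7.78) were Igfbp2-rich, and bFAPLs held 44.6% of the UMIs. White Igfbp2-rich cells had mural markers at 18820 CPM against 3562 CPM in cells without an Igfbp2 UMI, and in brown cells these values were 8664 and 4967 CPM; the part of mural cells in this was not tested. Igfbp5-rich cells were more common, with 99 white (2.29%) and 148 brown cells (2.48%), and were found in 7.65% of wFAPLs and 7.47% of bAPC 5 cells. In all, 7 white and 5 brown cells were rich in both. These were 20.0% of white and 8.93% of brown Igfbp2-rich cells, above the 2.29% and 2.48% of all cells that were Igfbp5-rich, and 7.07% and 3.38% of Igfbp5-rich cells. This comparison does not hold clusters fixed: 17 of the 35 white Igfbp2-rich cells were differentiating wFAPLs, of which 24.1% were Igfbp5-rich.

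**Figure D4:**
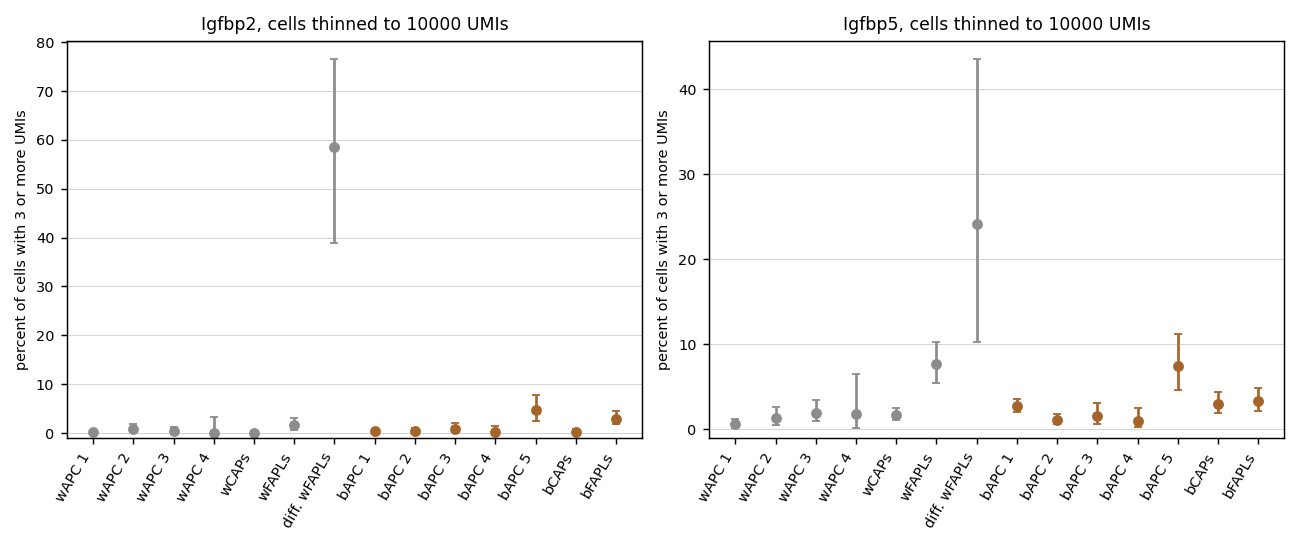
Percent of cells with at least 3 UMIs of Igfbp2 (left) or Igfbp5 (right) in each cluster, after thinning to 10000 UMIs and with labels carried over to all precursor cells, with exact 95% binomial intervals (grey, white depot; brown, brown depot; the vertical scales differ). Differentiating wFAPLs lie highest for both genes, at 58.6% and 24.1%, and bAPC 5 highest among brown clusters, at 4.63% and 7.47%.

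Cells of other lineages, present in the same cultures, had binding protein profiles of their own. Glial-like cells had Igfbp5 at 142 CPM (white) and 183 CPM (brown), Igfbp3 at 327 and 308 CPM, and no Igfbp2 UMI, which allows, at 3 counts of the total, up to 2.74 and 1.99 CPM. Myeloid-like cells had little Igfbp7 (111 and 189 CPM) and Igf1r (81.6 and 64.6 CPM) beside their high Igf1. The 33 myogenic-like cells of the brown library had Igfbp2 at 104 CPM (85.0 to 126) and Igf1 at 19.2 CPM. The Igfbp4 level of white glial-like cells, 3.66 CPM (0.996 to 9.36), lay far below that of any precursor cluster.

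By called cell cycle phase, 8 of the 10 members were lower in G2/M than in G1 in both depots beyond counting error at less than 2-fold, and Igfbp2 also, though its interval in brown reached 2-fold. The log2 ratio of G2/M over G1 was −0.66 (−0.90 to −0.43) in white and −0.87 (−1.10 to −0.65) in brown cells for Igfbp2, −0.52 and −0.45 for Igfbp4, −0.57 and −0.36 for Igfbp5, −0.31 and −0.53 for Igfbp3, and −0.19 and −0.36 for Igf1. Igf1r was the exception, at 0.01 (−0.03 to 0.05) in white and 0.09 (0.05 to 0.12) in brown cells. Over all precursor cells, no member passed 2-fold in either direction, where 4.97% (white) and 4.91% (brown) of all genes were higher and 0.646% and 0.486% lower in G2/M. Single clusters could run the other way, with Igfbp5 at 1.44 (0.81 to 2.05) in bAPC 2 and 0.52 in bCAPs, just beyond counting error, Igfbp3 at 0.43 (0.24 to 0.63) in wAPC 3 and 0.58 (0.06 to 1.11) in bAPC 3, and Igfbp2 at 3.60 (0.99 to 8.96) in bAPC 3, from levels below 10 CPM. Phase calls read the same UMIs, and the share of free RNA in them was not tested.

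**Figure D5:**
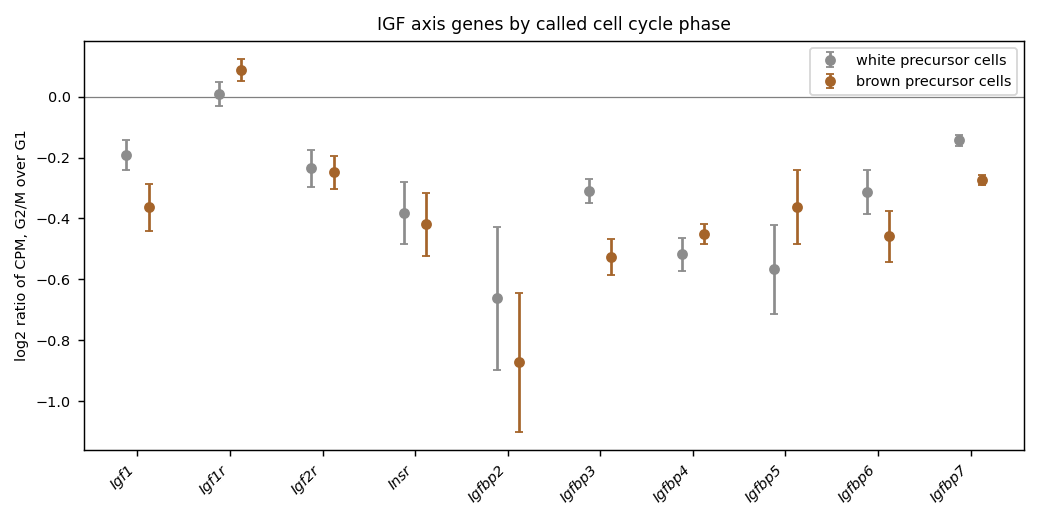
Log2 ratio of CPM in G2/M over G1 cells for each member, in white (grey) and brown (brown) precursor cells, with 95% counting intervals. All members but Igf1r lie below 0 in both depots, with Igfbp2 lowest at −0.66 and −0.87.

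The libraries pooled both sexes, and cells called female by Xist made up 79.4% of called white and 86.1% of called brown precursor cells. Tissue of only a few pups was pooled, and cells were not assigned to pups. Sex thus cannot be told apart from single pups, here and in all other ratios by sex, and cells are not replicates of a sex. Over all precursor cells, the depot differences of Igf1 (−1.61 in female and −1.73 in male cells), Igfbp3 (−1.39 and −1.34) and Igfbp6 (−0.73 and −0.97) were of like size in both sexes. That of Igfbp4 was 0.996 in female cells, just under 2-fold, and 1.34 in male cells. Igfbp2 was higher in male than in female cells, by 0.62 on the log2 scale in white (0.42 to 0.81) and 0.26 in brown (0.05 to 0.48), and brown male cells had less Igfbp5 (−0.44, −0.61 to −0.28) and more Igfbp4 (0.26, 0.23 to 0.30) than brown female cells. After thinning, however, 35 of 4330 white and 56 of 5958 brown cells held 66.8% and 65.1% of Igfbp2 UMIs. These intervals leave such packing out, and its part in the sex ratios of Igfbp2 and Igfbp5 was not tested.

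Other genes of the axis were counted from lists of 56 genes, of which 44 or 45 reached 10 CPM in a comparison. Between brown and white precursor cells, 0 of 44 were higher, where 0.73% of all genes were, and 2 lower, where 1.11% were: Igf2, the second IGF ligand, at 136 CPM in brown and 303 CPM in white (−1.16, −1.18 to −1.13), and Ghr, the growth hormone receptor, which drives Igf1 expression in liver and fat, at 161 and 392 CPM (−1.28, −1.30 to −1.26). Both ran in the direction of Igf1. In CAPs over FAPLs, 3 were higher and 1 lower in each depot, of 44 in white, where 1.6% of all genes were higher and 2.25% lower, and of 45 in brown, where 2.01% and 1.86% were. Of these, Igf2 (1.90 in white, 1.24 in brown) and Pappa, the pappalysin that cleaves IGFBP4 (1.03, 0.90 to 1.17 in white, and 1.61, 1.47 to 1.75 in brown), were higher in CAPs of both depots, and Timp3, a protease inhibitor of the matrix, was lower (−1.56, −1.60 to −1.51, and −1.64, −1.70 to −1.57). The remaining call in each depot was Ghr in white and Irs1, an insulin and IGF receptor adaptor, in brown. None of the 16 PI3K and AKT genes that reached 10 CPM passed 2-fold in any of the 5 comparisons. Igf1, Igf2 and Pappa thus stood higher, and the mRNA of the Pappa target Igfbp4 lower, in CAPs than in FAPLs of both depots, Igfbp4 in brown by less than 2-fold.

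The genes most like each member in pattern were taken over the 13 clusters, which come from only 2 libraries, by Pearson correlation of log2(CPM + 1) over 8816 genes. Igf1 was most like Lonrf1 (r = 0.933), Nrp2 (0.911) and Hunk (0.900). Among receptors, Igf1r was most like Atp13a3 (0.963), Esyt2 (0.950) and Tead1 (0.939), Igf2r like Ust (0.896), Arhgap21 (0.893) and Ddx58 (0.888), and Insr like Fgd4 (0.964), Tasor (0.963) and Gphn (0.963). Igfbp2 was most like Uchl1 (0.871), Meox2 (0.829), one of the FAPL markers, and S100a4 (0.823), and genes close to Igfbp6 were Cox6a2 (0.940) and Ctsl (0.934). For the other binding proteins, close genes were Dhrs3 (0.936), Kcnma1 (0.913) and Kat2b (0.900) for Igfbp3, Mpc2 (0.910), Sgcb (0.907) and Svbp (0.902) for Igfbp4, Foxj2 (0.864) and Mmp16 (0.864) for Igfbp5, and Ccn5 (0.898) and Adamtsl5 (0.877) for Igfbp7. No member was among the 3 closest genes of another: over the 45 pairs of members r ran from −0.47 (Igf1 and Igfbp4) to 0.64 (Igf1 and Insr, Igfbp2 and Igfbp6). Once depot means were removed, Igfbp2 and Igfbp6 were at 0.83, Igf1 and Insr at 0.25 and Igf1 and Igfbp4 at −0.01. Within clusters of more than 50 cells, 224 correlations between members from cell to cell ran from −0.24 to 0.26 with a median of 0.01, for members with at least 0.5 UMIs per thinned cell. At few UMIs per cell, counting noise makes such values small, so they cannot be set beside those over clusters. The size of this effect was not tested. No pair with Insr or Igfbp2 met this minimum, so the pairs most alike over clusters were not measured from cell to cell.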

How the data were processed

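Single-cell libraries of cultured white and brown adipose progenitors (1 each) were analysed. The authors aligned reads to mm10 with Cell Ranger 7.0.1 and deposited UMI counts per gene and cell, not normalized. Cells were kept with 3900 to 7700 genes (counted over genes found in at least 3 cells), 1.7 to 5% mitochondrial UMIs and 6000 to 60000 UMIs. Doublets were not called here. Clusters rebuilt with Seurat 5.3.0 in R 4.3.3 (2000 variable genes, 10 components, resolution 0.5) were named glial-like, myeloid-like or myogenic-like where at least 3 markers passed 50 CPM, and were set aside, and cell cycle phases were called with Seurat. Cluster labels were those of the study's source data for 1999 cells per depot. Where stated, they were carried to other cells by vote of 15 nearest labelled neighbours (scikit-learn 1.9.0), which returned 90.7% (white) and 87.2% (brown) of held-out labels.

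UMIs were summed per group and divided by all UMIs (CPM). Intervals at 95% are exact Poisson (levels), Clopper-Pearson (shares) and conditional binomial (ratios), computed with scipy 1.17.1 in Python 3.11.15. The Poisson and ratio intervals were tested only on simulated Poisson counts, the model they assume. Such counts lack the variation between cells, so how well the intervals cover it was not tested. Gene coordinates are from the GENCODE annotation of GRCm38, and promoters from RefSeq. Sex was called from Xist and Y-linked genes. All 10 members are named, other axis genes where they passed 2-fold between depots or in both CAP to FAPL comparisons, and the 3 genes most like each member, of which some are not reported here. The members and gene lists were chosen with earlier results of these data known. Alternatives were G1 cells only, female or male cells only, thinning to 10000 UMIs, median-ratio scaling, means of per-cell CPM, carried labels, all listed genes in the filter, and no minimum level. Protein sequences were not analysed here.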

Additional observations from a re-analysis of the deposited data

Results flagged for a closer look

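The depot difference of Igfbp7 had opposite signs in FAPLs and CAPs. Brown over white, the log2 ratio was 0.13 (0.09 to 0.16) in FAPLs and −0.19 (−0.22 to −0.15) in CAPs, each interval covering counting error only and neither near 2-fold, and the ratios differed by 0.313 on the log2 scale. With 1 library per depot the difference was not tested.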

How the results depend on the processing

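The number of members past 2-fold was recomputed 58 times over 6 comparisons and stayed within 1.5 times its value 57 times, a wide bound for counts this small. The exception was brown over white FAPLs in male cells alone, where 1 member, Igf1, passed 2-fold. Igf1 and Igfbp3 passed 2-fold between all precursor cells under every alternative run, and Igfbp4 under every one but female cells only. Of 390 member ratios, 19 changed sign, 13 of them from a value whose interval held 0. The other 6 were, in male cells only, Igfbp7 between precursor cells (0.0403), Igf2r (−0.0437) and Igfbp4 (0.0583) in bCAPs over bFAPLs, Igf1r in brown over white CAPs (0.0644) and Igfbp5 in brown over white FAPLs (0.58), and in G1 cells only, Igfbp2 in brown over white FAPLs (−0.71). Igfbp5 in the last comparison also fell below 2-fold in thinned cells, in G1 cells and by means of per-cell CPM. Beside these 6 reversals, 80 of the 390 ratios fell outside the counting interval of their main value, 23 of them in male cells only. Leaving out the richest cell of each gene, and leaving out differentiating wFAPLs (5 members with a cluster past 2-fold in place of 6, Igfbp7 dropping out), were chosen after seeing the data. Median-ratio scaling shifted ratios by −0.04 to 0.03. The cause of these changes was not tested. No paired analysis was possible because each depot has 1 library. Igfbp2, under 20 CPM in every cluster over 50 cells, is the member most limited by depth.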
